A study of Mus musculus with 6 samples.

Results

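The genes described here encode the proteins of the mitochondrial ribosome, the particle that translates the few messenger RNAs made from mitochondrial DNA. They were chosen by name: every array probe annotated with a single gene symbol that starts with Mrpl or Mrps followed by a digit was taken, and each gene was represented by its probe of highest mean intensity. This gave 44 genes with 55 probes, of 7606 genes with a named probe on the array. Current RefSeq annotation (mouse assembly GRCm38.p6) holds 78 protein-coding genes with such names, and the other 34 had no named probe and were not analysed here.

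The study compared CypD knockout with wild-type mouse embryonic fibroblasts, which are connective tissue cells grown from embryos. Cyclophilin D (CypD), encoded by Ppif, is a mitochondrial peptidyl-prolyl isomerase known as a regulator of the permeability transition pore. There were 3 arrays of CypD knockout cells and 3 of wild-type cells, all of C57BL/6 background and from E13.5 embryos, with the letters A, B and C as replicates in each group. The sources used here do not say how the knockout allele was made, how many embryos gave the cultures, or whether the letters mark separate cultures, so p-values cover array-to-array spread alone, and this spread may be technical.

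Mitochondrial ribosomal proteins are encoded in the nucleus, made in the cytosol and imported into the matrix, where they assemble with ribosomal RNAs made there into a large and a small subunit. The finished ribosome makes core subunits of the respiratory chain and ATP synthase, so its proteins are needed for oxidative phosphorylation. Many of the proteins descend from the bacterial ribosome, while others were added during the evolution of mitochondria. By these textbook classes, 27 of the genes belong to the large and 17 to the small subunit, 26 have a bacterial counterpart and 18 are specific to mitochondria. Mrps18a and Mrps30 were counted with the large subunit, where their proteins reside in spite of their names.

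Upstream sequence was taken from RefSeq promoter windows of GRCm38.p6, which run from 250 bases before to 50 bases after each gene's start and matched 39 of the 44 genes. It is shown for Mrps12, Mrps27 and Mrps30, whose calls held in every refit. It is also shown for Mrpl22, which carries letters of 2 motifs of factors known for nuclear genes of mitochondria. The windows of Mrps18b (ETS and NRF-1) and of Mrps18a and Mrps27 (ETS and YY1) also held letters of 2 such motifs. Each line ends at the base before the start and reads 5′ to 3′ on the gene's strand, with matched motif letters of either orientation in capitals. Mrps12 is at chr7:28741822-28741967 on the minus strand, with CCAAT in capitals 3 times. Its window also held ETS letters outside the printed stretch. Mrps27 is at chr13:99344679-99344785 on the plus strand, with the reverse complement of an ETS motif in capitals. Its YY1 letters lay outside the printed stretch. Mrps30 is at chr13:118387253-118387402 on the minus strand, with the reverse complement of CCAAT in capitals at 2 places. Mrpl22 is at chr11:58171514-58171663 on the plus strand, with an ETS and then an NRF-1 motif in capitals.
Mrps12: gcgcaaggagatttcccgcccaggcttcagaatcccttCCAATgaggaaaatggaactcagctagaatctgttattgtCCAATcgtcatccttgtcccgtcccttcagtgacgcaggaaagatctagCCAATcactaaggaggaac
Mrps27: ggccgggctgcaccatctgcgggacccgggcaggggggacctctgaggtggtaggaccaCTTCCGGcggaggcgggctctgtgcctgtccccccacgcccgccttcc
Mrps30: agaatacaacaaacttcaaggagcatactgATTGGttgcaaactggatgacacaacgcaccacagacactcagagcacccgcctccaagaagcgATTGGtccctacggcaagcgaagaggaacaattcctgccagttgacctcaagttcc
Mrpl22: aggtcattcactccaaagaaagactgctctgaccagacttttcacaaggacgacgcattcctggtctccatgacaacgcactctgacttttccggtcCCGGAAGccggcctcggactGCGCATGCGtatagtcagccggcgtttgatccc

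The stretches of Mrps12 and Mrps27 stop short because another gene starts there on the opposite strand. Mrps12 and Sars2, the mitochondrial seryl-tRNA synthetase, start 146 bases apart and point away from each other, and Mrps27 and Ptcd2, a pentatricopeptide repeat protein of mitochondria, start 107 bases apart. Such a head-to-head partner with overlapping windows was found for 8 of the 39 matched genes (20.5%), against 1317 of 17491 protein-coding genes in the table (7.53%). Mrps11 starts 41 bases from Mrpl46, which is a gene of the same family with no named probe.

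The windows were searched on both strands for 5 motifs. No motif's letters contain those of another, but CACGTG is its own reverse complement, and the NRF-1 letters overlap theirs. The ETS letters CCGGAAG, the core bound by GABPA (NRF-2), were in the windows of 16 of 39 genes (41.0%), against 12.9% of protein-coding genes and 8.86% of all 32851 windows. The YY1 letters AAGATGGCG were in 6 (15.4%), against 2.14% of protein-coding genes and 1.40% of all windows. The NRF-1 letters GCGCATGCG were in 4 (10.3%), against 2.61% and 1.75%. CCAAT was in 17 (43.6%), against 42.3% and 37.4%, and the E-box CACGTG, which Myc and USF proteins bind, was in 2 (5.13%), against 8.91% and 7.15%. A match is a description of letters and not a site. The ETS letters stood in 2 of 5 matched genes that were higher in knockout cells, 3 of 5 that were lower and 11 of 29 that were not called.

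**Figure D1:**
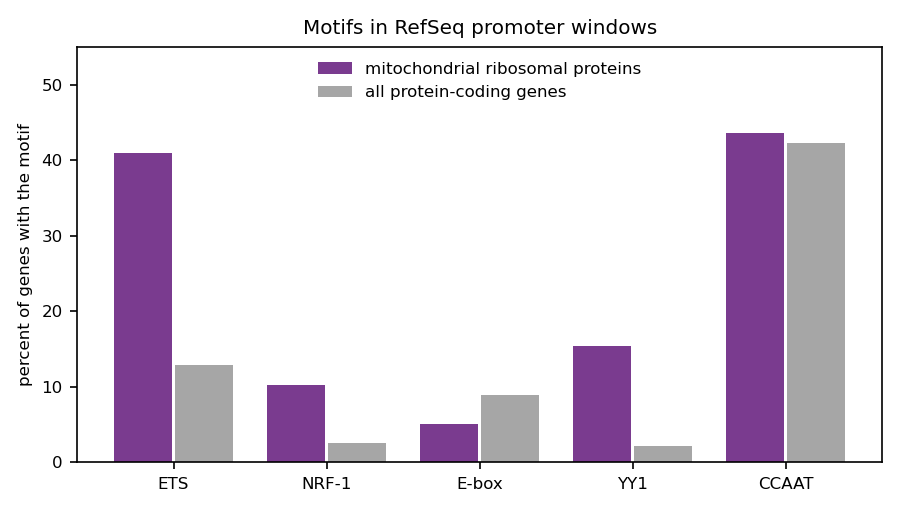
Bars give the percent of genes whose RefSeq promoter windows hold each motif (y axis) for the 39 matched mitochondrial ribosomal protein genes and for 17491 protein-coding genes. The ETS letters are in 41.0% against 12.9%, while CCAAT is in 43.6% against 42.3%.

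The deletion was checked first. Ppif measured 12.25, 12.35 and 12.18 in knockout arrays A, B and C, against 13.57, 13.70 and 13.62 in wild-type arrays, in log2 normalized intensity. It was 2.59-fold lower (log2 fold change -1.37 ± 0.0660 SE, adjusted p = 2.96e-09). Signal remained in knockout arrays, with a mean of 12.26, and the probe was at percentile 95.98 of mean intensity over all probes. Whether the probe lies inside the deleted part is not known. Of 12 fibroblast markers, 9 had a named probe and were tested. In knockout cells Col3a1, Pdgfra and Pdgfrb were higher, Col1a1, Col1a2, Sparc and Dcn were lower, and Vim and Fn1 were not called. That is 3 higher, 4 lower and 2 not called, where 43.6% of named genes were called in either direction. Dcn and Vim were the dimmest of the 9, at percentiles 57.25 and 66.48 of mean intensity over all probes. Among 13 markers of epithelial, endothelial, blood, muscle and neural cells, Cdh1 alone had a named probe and was not called (log2 fold change -0.09, percentile 60.65). The part of these shifts in the results below was not tested, and in whole cultures fewer cells of a type and less RNA per cell cannot be told apart. Over all probes the arrays correlated at 0.994 within the knockout group, 0.992 to 0.994 within the wild-type group and 0.984 to 0.986 between groups.

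All 44 genes passed the filter on dim probes and were tested. In CypD knockout cells 5 were higher and 8 were lower, and 31 were not called. Called means an adjusted p under 0.05 in limma, adjusted over 27168 probes. The genes called made up 29.5% of the family, against 43.6% of all 7605 tested named genes and 20.0% of all tested probes. By direction, 21.8% of named genes were called higher and 21.8% were called lower. Named probes are those listed in the deposited processed table, which kept probes that varied over the arrays. Every listed probe also reached a linear intensity of at least 273 in some array. The named genes and the 44 genes alike were thus partly chosen for variation and brightness. With median scaling in place of quantile normalization the split was 2 higher and 12 lower.

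The median log2 fold change was -0.10 for the 44 genes, against 0.01 for named genes and 0.00 for all tested probes. The median size of change, regardless of direction, was 0.17 on the log2 scale, against 0.24 for named genes and 0.13 for all tested probes. None of the 44 genes changed 2-fold, whereas 462 named genes (6.07%) were called and changed at least 2-fold. Of the 13 called genes, 11 changed less than 1.5-fold. The median standard error was 0.0810 for the family and 0.0954 for named genes. The family was bright, with a median percentile of 93.3 in mean intensity over all probes, and 42 of the 44 genes lay above the 70th. The part of brightness in these errors and sizes was not tested.

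**Figure D2:**
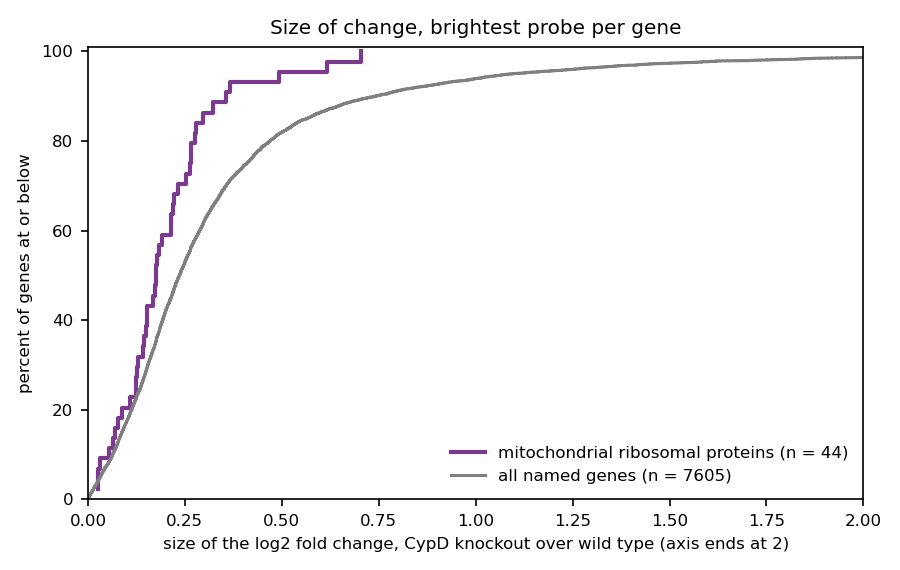
The x axis gives the size of the log2 fold change regardless of direction and the y axis the percent of genes at or below it, for 44 mitochondrial ribosomal protein genes and 7605 named genes. The family's line ends at 0.70, the size for Mrps27, and the line of named genes goes on past the axis end at 2.

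Among small subunit genes 3 were higher, 3 were lower and 11 were not called, and among large subunit genes the counts were 2, 5 and 20. The median log2 fold change was -0.05 in the small and -0.11 in the large subunit. Of genes with a bacterial counterpart, 3 were higher, 3 were lower and 20 were not called. Of mitochondria-specific genes, 2 were higher, 5 were lower and 11 were not called. The share called was 35.3% in the small and 25.9% in the large subunit. It was 23.1% of genes with a bacterial counterpart and 38.9% of mitochondria-specific genes. Of all named genes 43.6% were called, 21.8% higher and 21.8% lower. Whether these classes differ from each other was not tested.

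**Figure D3:**
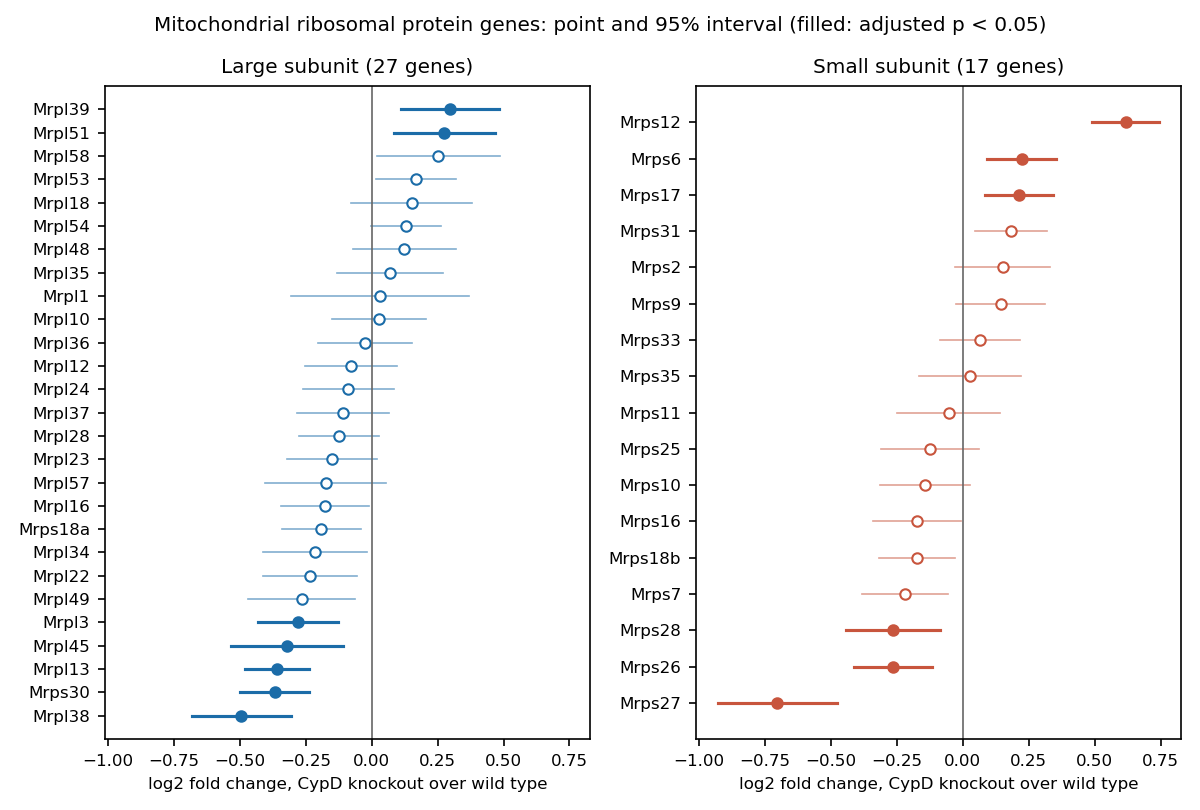
Each row is a gene, the point its log2 fold change (CypD knockout over wild type) and the line its 95% interval, with large subunit genes on the left and small subunit genes on the right; filled points passed the test. Mrps12 at 0.62 and Mrps27 at -0.70 are the ends of the range.

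Mrps12, the small subunit protein of the decoding centre, was the most raised gene of the family. It measured 13.52, 13.46 and 13.53 in knockout arrays A, B and C, against 12.96, 12.85 and 12.85 in wild-type arrays. Every knockout array lay above every wild-type array, by much more than the spread within a group. The gene was 1.53-fold higher in knockout cells (log2 fold change 0.62 ± 0.0591 SE, adjusted p = 3.43e-06). Its second probe averaged 13.46 ± 0.0403 in knockout arrays and 12.74 ± 0.103 in wild-type arrays (SD, n = 3 each), and its log2 fold change was 0.72 (adjusted p = 2.01e-06). Both probes thus separated the groups in the same direction. Sars2, which shares its upstream stretch with Mrps12, had a log2 fold change of 0.00 ± 0.124 SE (adjusted p = 0.992). The Sars2 probe was far dimmer, at percentile 58.9 of mean intensity over all probes, against 96.62 for the brightest Mrps12 probe.

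The other 4 raised genes changed less than Mrps12. Mrpl39, a mitochondria-specific protein of the large subunit, measured 9.27, 9.27 and 9.22 in knockout arrays, against 9.02, 8.87 and 8.98 in wild-type arrays (log2 fold change 0.30, adjusted p = 0.0267). Mrpl51, another such protein, measured 9.06, 9.18 and 9.21 in knockout arrays, against 8.92, 8.82 and 8.87 in wild-type arrays (0.28, adjusted p = 0.0426). In both genes the lowest knockout array lay above the highest wild-type array. Mrps6, the counterpart of bacterial S6, measured 13.74, 13.66 and 13.72 in knockout arrays, against 13.45, 13.43 and 13.58 in wild-type arrays (0.22, adjusted p = 0.0171). Mrps17, the counterpart of bacterial S17, measured 14.05, 13.95 and 13.93 in knockout arrays, against 13.74, 13.70 and 13.85 in wild-type arrays (0.21, adjusted p = 0.0224). In Mrps6 and Mrps17 the groups were apart by a narrow margin, with wild-type array C nearest to the knockout arrays. Median scaling ended the calls of Mrps6 (adjusted p = 0.170), Mrps17 (0.129) and Mrpl51 (0.0506).

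Mrps27, a pentatricopeptide repeat protein of the small subunit that binds RNA, was the most lowered gene. It measured 8.83, 8.91 and 8.72 in knockout arrays A, B and C, against 9.49, 9.36 and 9.72 in wild-type arrays. All knockout arrays lay below all wild-type arrays. The gene was 1.63-fold lower (log2 fold change -0.70 ± 0.105 SE, adjusted p = 0.000227). Ptcd2, its head-to-head partner, had a log2 fold change of -0.25 ± 0.133 SE and was not called (adjusted p = 0.232).

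In the large subunit the most lowered gene was Mrpl38, a mitochondria-specific protein of the central protuberance. It measured 9.72, 9.73 and 9.71 in knockout arrays, against 10.16, 10.11 and 10.37 in wild-type arrays, and was 1.41-fold lower (log2 fold change -0.49, adjusted p = 0.000966). The knockout arrays were almost level with each other and well below the wild-type arrays. Mrps30, a large subunit protein specific to mitochondria, measured 13.22, 13.18 and 13.07 in knockout arrays, against 13.52, 13.49 and 13.57 in wild-type arrays (-0.37, adjusted p = 0.000547). Mrpl45, a protein near the exit of the peptide tunnel, measured 7.61, 7.47 and 7.57 in knockout arrays, against 7.91, 7.83 and 7.87 in wild-type arrays (-0.32, adjusted p = 0.0333). Neither gene's groups overlapped.

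Mrpl13 and Mrpl3, counterparts of bacterial L13 and L3, were called on their brightest probe and not on their others. The brightest Mrpl13 probe measured 14.19, 14.21 and 14.15 in knockout arrays, against 14.64, 14.48 and 14.50 in wild-type arrays (log2 fold change -0.36, adjusted p = 0.000379). Its other probe measured 11.63, 11.69 and 11.68 in knockout arrays, against 11.80, 11.74 and 11.93 in wild-type arrays (-0.16, adjusted p = 0.161). On both probes the knockout arrays lay below the wild-type arrays, by less on the second. The brightest Mrpl3 probe measured 12.60, 12.50 and 12.59 in knockout arrays, against 12.94, 12.71 and 12.88 in wild-type arrays (-0.28, adjusted p = 0.0123). On its other 2 probes the log2 fold change was -0.07 (adjusted p = 0.695) and -0.01 (0.978), and on both the groups overlapped. The remaining 6 genes with several probes had all their probes on one side of 0 and in the same call.

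Mrps26 and Mrps28 of the small subunit completed the lowered genes. Mrps26 measured 11.67, 11.61 and 11.68 in knockout arrays, against 11.96, 11.84 and 11.94 in wild-type arrays (log2 fold change -0.26, adjusted p = 0.0131). Mrps28, which has an S1-like RNA-binding domain, measured 12.04, 12.13 and 12.34 in knockout arrays, against 12.51, 12.33 and 12.46 in wild-type arrays (-0.26, adjusted p = 0.0369). Knockout array C lay just above wild-type array B in Mrps28, the one called gene whose groups overlapped.

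**Figure D4:**
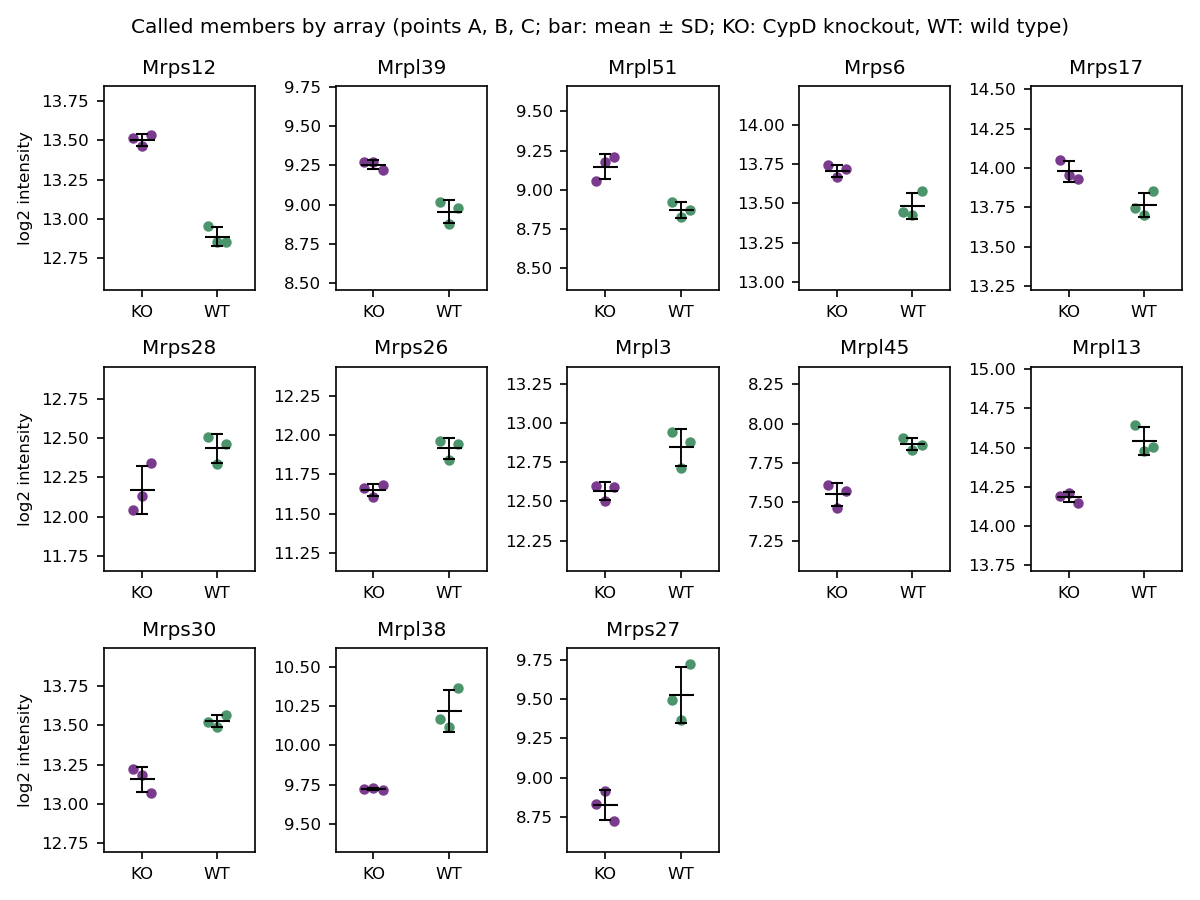
Each panel is a called gene, with log2 normalized intensity on the y axis (all panels span the same range, starting at different levels), the 3 CypD knockout arrays (KO) left of the 3 wild-type arrays (WT), and mean ± SD as bars. The groups are apart in every panel except Mrps28, where knockout array C reaches 12.34 and wild-type array B 12.33.

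Of the 31 genes not called, 13 had a log2 fold change above 0 and 18 below 0. Their 95% intervals all lay between -0.47 and 0.49, or 0.723- to 1.40-fold. Above 0 in the large subunit were Mrpl58, Mrpl53, Mrpl18, Mrpl54, Mrpl48, Mrpl35, Mrpl1 and Mrpl10, with values of 0.03 to 0.25, the highest being Mrpl58, a peptidyl-tRNA hydrolase that became part of the ribosome. Above 0 in the small subunit were Mrps31, Mrps2, Mrps9, Mrps33 and Mrps35, with 0.03 to 0.18. Below 0 in the large subunit were Mrpl49, Mrpl22, Mrpl34, Mrps18a, Mrpl16, Mrpl57, Mrpl23, Mrpl28, Mrpl37, Mrpl24, Mrpl12 and Mrpl36, with -0.27 for Mrpl49 and -0.025 for Mrpl36 as the ends. Below 0 in the small subunit were Mrps7, Mrps18b, Mrps16, Mrps10, Mrps25 and Mrps11, with -0.22 for Mrps7 and -0.05 for Mrps11 as the ends. Nearest to the threshold were Mrps7 (adjusted p = 0.0602), Mrps31 (0.0611), Mrpl22 (0.0656) and Mrpl49 (0.0658). At an unadjusted p under 0.05 stood 24 of the 44 genes, against 58.2% of named genes and 29.8% of all tested probes.

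The brightest gene not called was Mrpl28, the counterpart of bacterial L28. It measured 14.15, 14.07 and 14.22 in knockout arrays, against 14.11, 14.32 and 14.38 in wild-type arrays (log2 fold change -0.12, 95% interval -0.28 to 0.03, adjusted p = 0.283). Mrpl10, which anchors the stalk of the large subunit, measured 13.49, 13.43 and 13.34 in knockout arrays, against 13.47, 13.53 and 13.18 in wild-type arrays (0.03, 95% interval -0.15 to 0.21, adjusted p = 0.885). In both genes the groups overlapped. Over the family the groups did not overlap in 19 of 44 genes, 8 of them higher and 11 lower in knockout cells, against 56.1% of named genes without overlap. Of these 19 genes, 12 were called.

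Wild-type array C stood somewhat apart within the family. The 44 genes deviated from their own group mean by -0.01, 0.01 and 0.01 on average (log2) in knockout arrays A, B and C. In wild-type arrays they deviated by -0.03, -0.02 and 0.06, whereas the named genes deviated by at most 0.01 on average in any array. The median deviations in wild-type arrays A, B and C were -0.0291, -0.0422 and 0.0565 in the family. In named genes they were -0.0022, -0.0161 and 0.0251. By the median, array C was thus the highest wild-type array in both, by less in named genes. Set against the wild-type mean of each gene, the large subunit averaged -0.10, -0.07 and -0.06 in knockout arrays, against -0.03, -0.01 and 0.05 in wild-type arrays. The small subunit averaged -0.03, -0.03 and -0.04 in knockout arrays, against -0.03, -0.04 and 0.08 in wild-type arrays. The small subunit average of wild-type array C was thus the highest, and those of the other wild-type arrays lay level with the knockout arrays.

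The calls in the family depended on single arrays, as did the calls over all tested probes. With 1 array left out at a time, 2 genes were higher without wild-type array A, 1 without wild-type array B, and 2 without any 1 of the 3 knockout arrays, while without wild-type array C there were 5, with Mrpl58 called (log2 fold change 0.37, adjusted p = 0.00864) and Mrpl51 not (0.27, 0.0542). The number of lowered genes was 4 without knockout array B and 6 to 8 in the other cases. The median log2 fold change was -0.15 without wild-type array A and -0.06 without knockout array A. Over all tested probes, 5423 were called with every array in the fit. Fewer probes were called without wild-type array A or B or any 1 knockout array, and more without wild-type array C. The part of this array-wide change in the family's lost calls was not tested. Mrpl13, Mrpl38, Mrps12, Mrps27 and Mrps30 were called in all 15 refits that varied the processing or left out an array, and each of the other 8 lost its call in at least 1.

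Other genes of mitochondrial gene expression were read from lists. The pooled lists of translation and its support and of mitochondrial DNA upkeep and transcription held 56 tested genes. Of these, 6 were higher, 12 were lower and 38 were not called in knockout cells (32.1% called, median log2 fold change -0.09), against the 43.6% of named genes called. Regulators and genes of mitochondrial mass and import were not pooled. Of 3 ribosome proteins under other names, Gadd45gip1, a large subunit protein also known as CRIF1, was lower. It measured 9.52, 9.62 and 9.58 in knockout arrays, against 10.38, 10.27 and 10.34 in wild-type arrays (log2 fold change -0.76, adjusted p = 8.94e-06). The knockout arrays lay far below the wild-type arrays. The small subunit proteins Chchd1 (-0.16, adjusted p = 0.0759) and Dap3 (-0.13, 0.347) were not called.

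Of 10 translation factors 0 were higher, 2 were lower and 8 were not called (20.0% called, against 43.6% of named genes). Mtif3, which initiates translation, measured 9.47, 9.57 and 9.45 in knockout arrays, against 10.41, 10.41 and 10.60 in wild-type arrays, and was 1.96-fold lower (log2 fold change -0.97, adjusted p = 1.66e-06). Its second probe was at -0.08 and was not called (adjusted p = 0.659). Gfm2, which recycles ribosomes, was lower (-0.28, adjusted p = 0.0193). The elongation factor Gfm1 (-0.19) and the release factor Mtrf1l (-0.13) were not called.

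Among 18 genes of ribosome assembly and rRNA modification, 2 were higher, 3 were lower and 13 were not called. The share called was 27.8%, against 43.6% of named genes. The GTPases Gtpbp10 (log2 fold change 0.64, adjusted p = 0.00239) and Mtg1 (0.38, 0.00498), both of large subunit assembly, were higher. All 4 Gtpbp10 probes were called higher, whereas the second Mtg1 probe was not called (0.20, adjusted p = 0.18). Afg3l2, a subunit of the protease that matures Mrpl32, measured 10.31, 10.18 and 10.06 in knockout arrays, against 11.14, 10.98 and 11.14 in wild-type arrays, and was 1.87-fold lower (-0.90, adjusted p = 3.65e-06). Rbfa, a factor of small subunit maturation, was lower on its brightest probe (-0.35, 0.00222), while its second probe was at -0.28 and not called (0.163). The pseudouridine synthase Trub2 (0.17) and the matrix protein C1qbp (-0.19) were not called.

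There were 11 genes that supply mitochondria with charged tRNAs, all aminoacyl-tRNA synthetases except the amidotransferase subunits Gatb and Gatc. Of these, 2 were higher, 2 were lower and 7 were not called (36.4% called, against 43.6% of named genes). Wars2 (log2 fold change 0.35, adjusted p = 0.0105) and Vars2 (0.25, 0.0371) were higher, although the second Wars2 probe was at -0.10 (0.697), and Tars2 (-0.35, 0.0197) and Fars2 (-0.26, 0.0181) were lower. Gatc (0.19) and Mars2 (-0.11) were not called. Of 4 tRNA processing genes Elac2, the tRNA 3′ endonuclease, was lower on its brightest probe (-0.41, 0.0101), and its other 3 probes were at -0.24 to 0.09 and not called. Gtpbp3 (0.06) and Cdk5rap1 (-0.14) were not called. The share called of these 4 genes was 25.0%, against 43.6% of named genes.

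Of 10 genes of mitochondrial DNA upkeep and transcription, 2 were higher, 3 were lower and 5 were not called. The RNA-degrading enzyme Pnpt1 was higher (log2 fold change 0.53, adjusted p = 0.00226). The poly(A) polymerase Mtpap (-0.57, 0.000105), the topoisomerase Top1mt (-0.39, 0.0048) and the mRNA-stabilizing protein Lrpprc (-0.32, 0.00952) were lower on their brightest probes. The other 2 Lrpprc probes were not called (-0.37, adjusted p = 0.0766, and -0.22, 0.0837). The Lrpprc partner Slirp (0.23) and the single-stranded DNA binding protein Ssbp1 (0.15) were not called.

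Of 7 regulators of nuclear genes for mitochondria, Myc was lower and the other 6 were not called (14.3% called, against 43.6% of named genes). Myc, a transcription factor that raises ribosome production, measured 7.87, 7.92 and 7.79 in knockout arrays, against 8.45, 8.46 and 8.40 in wild-type arrays (log2 fold change -0.58, adjusted p = 0.000463). The groups were well apart. Thap11 (0.10) and the coactivator Pprc1 (-0.02) were not called.

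Genes of mitochondrial mass and import gave 2 higher, 1 lower and 5 not called of 8 (37.5% called, against 43.6% of named genes). Tomm22, a receptor of the outer membrane, was higher on its brightest probe (log2 fold change 1.75, adjusted p = 3.74e-10), but its second probe was called lower (-0.46, 0.00191), so its direction is not settled. The import receptor Tomm70a was higher (0.26, 0.0274) and the matrix chaperone Hspa9 was lower (-0.40, 3.7e-05). Hspd1, the matrix chaperonin, measured 12.91, 12.43 and 12.49 in knockout arrays, against 12.89, 13.26 and 11.58 in wild-type arrays (0.04, adjusted p = 0.959). Wild-type array C was the lowest of the 6 arrays in Hspd1, and without it the log2 fold change was -0.46 (adjusted p = 0.0117). The channel Vdac3 (0.12) was not called.

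**Figure D5:**
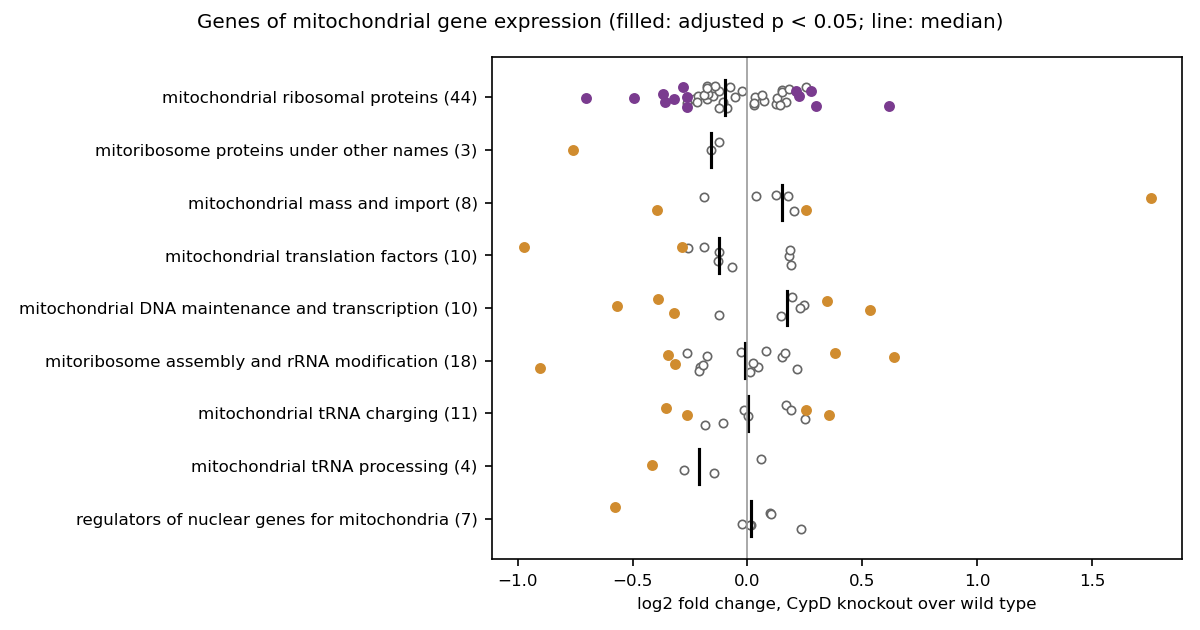
Each row is a gene list with its number of tested genes, the x axis the log2 fold change (CypD knockout over wild type), filled points genes that passed the test and the black line the list's median. Points of the mitochondrial ribosomal proteins lie between -0.70 and 0.62, and the outlying point at 1.75 is the brightest Tomm22 probe, whose second probe went the other way.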

How the data were processed

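Total RNA was profiled on Illumina bead arrays. The authors deposited linear probe intensities, 1 file per array with 45281 probes, and a processed intensity table of 12534 probes, per the file headers; the scan software was BeadStudio 3.0, per the submitters' processing notes. The listed probes vary at least 1.20-fold over the arrays, and gene names were available for these alone (10653 with 1 symbol, 5 with several, 1876 with none). The sources used here give no detection p-values, slides or background. The number of arrays limits the precision.

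Intensities were corrected with normexp (offset 50), put on the log2 scale and quantile-normalized. Probes with a mean above the 40th percentile (27168) were tested with limma 3.58.1 under R 4.3.3 (lmFit, eBayes with trend), CypD knockout over wild type, two-sided, with Benjamini-Hochberg adjustment over all of them. Errors of fold changes are standard errors. On simulated data the share of false calls stayed under the 0.05 threshold with 2 of 3 noise models and was well above it with the other. The model taken as the standard, and its pass mark, were chosen after all 3 were seen. The 2 models not taken had failed marks set by hand. The members and lists, and the corrected class of Mrps28, were chosen with earlier results of these data known. Values by array were given for all 13 called genes (the rule asked for at most 6 in each direction, and Mrps26 and Mrps28 were added), genes whose probes disagree and the 2 brightest genes not called, and from each list up to 4 called genes of lowest p and up to 2 others of highest intensity were named. The alternatives varied background, normalization, filter, trend, array weights, source, probe and arrays. Deviations of same-letter arrays correlated weakly (0.101, -0.0899 and 0.0753 for A, B and C). With so few arrays this cannot decide whether the letters pair them.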

Additional observations from a re-analysis of the deposited data

How the results depend on the processing

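No background correction, an offset of 16, the 70th percentile filter, array weights and the processed table ended none of the 13 calls in the family, and no filter ended 2. Mrpl45 was too dim for the 70th percentile filter and had no value there. Median scaling gave 2 higher and 12 lower genes and a median log2 fold change of -0.15, while it moved the median of all tested probes to -0.01. Without the intensity trend 3 genes were higher and 6 lower, and with the probe of highest variance the median was -0.0658. Leaving out 1 array at a time gave 1 to 5 higher genes, 4 to 8 lower genes and medians of -0.152 to -0.0649. The replicate block is a fit with the letters as pairs, although same-letter deviations correlated weakly. It ended the call of Mrpl51 and gave 4 higher and 8 lower genes and 5273 called probes, against 5423 without it. Of 6 arrays, 2 correlated best with their own letter. In every such case the cause was not tested.

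Signs turned for genes near 0. Under median scaling the log2 fold change was -0.0305 for Mrpl10, -0.0171 for Mrps35, -0.0048 for Mrps33 and -0.02 for Hspd1. With array weights it was -0.0129 for Mrpl10, 0.0101 for Mrpl36 and -0.14 for Hspd1. With 1 array left out at a time the range was -0.14 to 0.20 for Mrpl1, -0.0772 to 0.0942 for Mrpl10, -0.135 to 0.0366 for Mrpl36, -0.12 to 0.0330 for Mrps11, -0.0531 to 0.0947 for Mrps35, -0.46 to 0.38 for Hspd1, -0.0111 to 0.134 for Gtpbp3 and -0.11 to 0.0536 for Pprc1.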

Other observations

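The genes lie on 17 chromosomes. Mrps16 (log2 fold change -0.17, adjusted p = 0.144) and Mrpl57 (-0.17, adjusted p = 0.319) are on chromosome 14, which carries Ppif, and neither was called. The 26 genes next to the 13 called ones in RefSeq order were looked up, and 10 had a named probe. Of these, 3 were called in the same direction as the ribosomal gene, 0 in the opposite direction and 7 were not called, against 43.6% of named genes called in either direction. The log2 fold change was -0.36 for Mtbp, next to Mrpl13 (adjusted p = 0.000861), and 0.43 for Ncapd2, a condensin subunit next to Mrpl51 (0.00192). Fgf10, a growth factor gene next to Mrps30, measured 8.19, 8.10 and 8.07 in knockout arrays, against 9.80, 9.72 and 9.57 in wild-type arrays, and was 2.98-fold lower (adjusted p = 2.89e-08). These 3 neighbours were named after their values were seen.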
